A study of Mus musculus with 35 samples.

Results

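A set of 133 genes passed through a low point while GATA6 was induced in mouse embryonic stem (ES) cells. By 168 h these genes had risen again, though not always to their starting level. The members were selected on their measured levels in the induction series, given as TPM, a relative abundance within a library. A gene was a member when its mean was at least 5 TPM at both 0 h and 168 h and when the lowest of its means at 16, 24, 48, 72 and 96 h was at least 2-fold below each of those 2 means. Of 44853 genes in the table, 8441 reached 5 TPM at both ends, and the 133 members were 1.58% of these. The dip and the return are therefore what chose the genes, and the values at 0 to 168 h are given below as a description, with no test. The XEN and siRNA libraries took no part in the choice.

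The induction series held 23 libraries of poly(A) RNA. KH2 ES cells (C57BL/6 x 129/Sv) that carry a doxycycline (Dox) inducible Gata6 cassette were profiled in 3 libraries per time, untreated (0 h) or exposed to 1 µg/mL Dox for 16, 24, 48, 72, 96 or 168 h. Another 2 libraries came from untreated wild type XEN cells of line X10 (CD1), an extra-embryonic endoderm line cultured without LIF, whose strain and medium thus also differ from those of the ES cells. A separate siRNA series took the inducible KH2 cells to 48 h of 1 µg/mL Dox in 12 libraries, of which 6 had received a control siRNA (siCTL) and 6 an siRNA to Oct4 (siOct4), the product of Pou5f1. All cells grew in serum on mouse embryonic fibroblast (MEF) feeders, which were adsorbed before lysis, and the ES cells had LIF. The cassette encodes GATA6 with HA tags, and single resistant clones were picked after its introduction. The siRNA series used 1 of the 2 clones that were kept, and the clone of the induction series is not given in the sources used here. In bulk RNA of this kind, fewer cells of a type and less RNA per cell cannot be told apart.

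GATA6 is a zinc finger transcription factor that drives primitive endoderm (PrE), the lineage that lies beside the epiblast in the blastocyst and later lines the yolk sac. ES cells resemble the epiblast and depend on factors such as Oct4, Sox2 and Nanog, whereas XEN cells resemble PrE and express Gata6, Gata4, Sox17 and Pdgfra. Forced GATA6 expression takes ES cells out of pluripotency and into a PrE-like state. Most descriptions of such a conversion follow genes that go one way, whereas the genes described here were expressed in the starting cells, low on the way and expressed again at the end.

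The libraries followed their labels. The summed level of 5 ES cell markers (Pou5f1, Sox2, Nanog, Esrrb and Zfp42) ranged from 2713 to 2960 TPM at 0 h, from 75.4 to 154 TPM at 168 h and from 3.51 to 4.15 TPM in XEN cells. The sum of 7 PrE markers ranged from 3.10 to 4.44 TPM at 0 h, from 1999.9 to 2220.1 TPM at 168 h and from 1588 to 1603 TPM in XEN cells. A list of 20 fibroblast markers, which stands for remaining feeders, summed to between 73.8 and 191 TPM at 0 h, between 127 and 164 TPM at 48 h and between 234 and 447 TPM at 168 h, with replicate 3 the highest at every time except 96 h. Of these 20 markers, 16 had a mean of at least 1 TPM at 0 h and 19 at 168 h, none had a mean of 0 in the time course, and none was a member of the set. The part of feeder RNA in the levels below was not tested. The 168 h replicate 3 library also held more Pou5f1 (112 TPM) than the other 2 libraries of that time (39.1 TPM in each). Replicate 3 at 72 h stood apart in hypoxia genes, and replicate 3 of both siRNA groups stood apart in many members, as given beside those results.

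The dip was broad and centred on 48 to 96 h. The lowest mean was that of 96 h in 52 members, of 72 h in 42, of 48 h in 27, of 24 h in 9 and of 16 h in 3. The median member stood at 75.4% of its 0 h mean after 16 h, 62.9% after 24 h, 43.5% after 48 h, 42.9% after 72 h and 42.0% after 96 h, and was back at 93.1% after 168 h. The median over all 8441 genes with both ends at 5 TPM stayed between 101% and 111% of 0 h at these times. Of the members, 14 first reached a mean at least 2-fold below 0 h by 16 h, 31 by 24 h, 54 by 48 h, 16 by 72 h and 18 by 96 h. For 43 members this held at a single time, while 7 were low at all 5 times between 16 and 96 h. The median fold between 0 h and the low point was 3.07, and between 168 h and the low point 2.90.

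**Figure D1:**
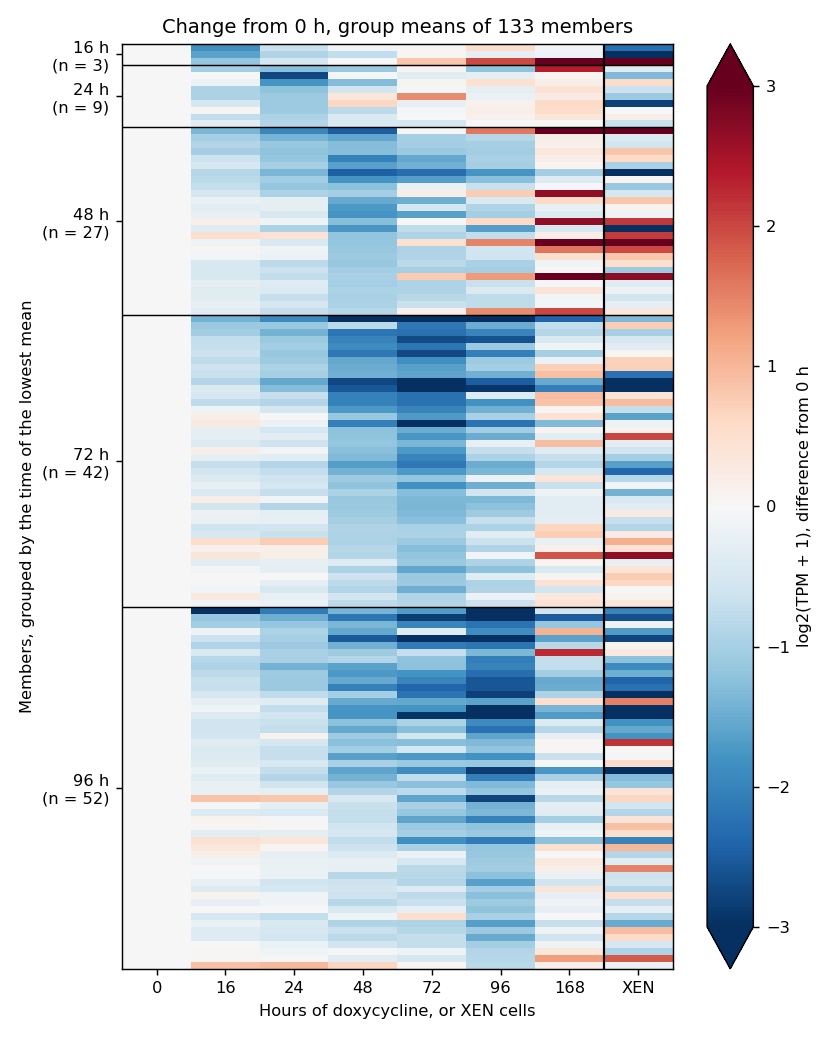
Group means of the 133 members as the difference in log2(TPM + 1) from 0 h (colour, blue lower and red higher, saturated at 3), in columns by hours of Dox and XEN cells, and in rows grouped by the time of the lowest mean. The 48, 72 and 96 h columns are mostly blue, the 168 h column is near white except for 15 members more than 2-fold above 0 h and 19 that were 2-fold or more below 0 h, and the XEN column holds both colours.

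The libraries were separated for most members. In 118 of the 133 members (88.7%) each library of the lowest time lay below each library of 0 h and of 168 h, against 17% of all genes with both ends at 5 TPM (1434 of 8441). Because the same libraries chose the members, this share describes the spread between replicates and supports nothing else. The level regained at 168 h differed widely, from 19 members at or below 50% of their 0 h mean, through 99 members within 2-fold of it, to 15 members more than 2-fold above it. Altogether 74 members were below their 0 h mean at 168 h and 59 were above it. By GENCODE M21 (mm10), 125 members are protein coding, 3 are antisense genes, 2 are processed pseudogenes and 1 is a lincRNA, and 2 were not matched. Their exons covered a median of 4532 exon bases against 4412 for the 8403 annotated genes at 5 TPM at both ends. Their median 0 h mean was 17.0 TPM against 27.9 TPM.

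Promoter sequence is shown for 6 members, because the results below turn on an Oct4 knock-down and on hypoxia genes. The windows are from RefSeq (GRCm38.p6), run from 250 bases before to 50 after the start of transcription, are written 5′ to 3′ on the strand of the gene, and were found for 98 of the 133 members. Capitals mark the octamer ATGCAAAT, the core recognised by Oct4 and other POU factors, and ACGTG, the core of hypoxia response elements, on either strand. The GATA motif AGATAA was also searched and occurs in none of the 6 windows. Each of the 6 holds the octamer or ACGTG, so they do not represent the members at large. The shares over all windows are given below. The octamer stands in Tmsb4x (chrX:167209169-167209468, - strand), Prrg4 (chr2:104849801-104850100, - strand), Lgr4 (chr2:109917397-109917696, + strand) and Egln3 (chr12:54203825-54204124, - strand). ACGTG stands in Egln3, in Ddit4 (chr10:59951721-59952020, - strand) and in Bnip3 (chr7:138909457-138909756, - strand), where the capitals CACGTG hold it on both strands.
Tmsb4x: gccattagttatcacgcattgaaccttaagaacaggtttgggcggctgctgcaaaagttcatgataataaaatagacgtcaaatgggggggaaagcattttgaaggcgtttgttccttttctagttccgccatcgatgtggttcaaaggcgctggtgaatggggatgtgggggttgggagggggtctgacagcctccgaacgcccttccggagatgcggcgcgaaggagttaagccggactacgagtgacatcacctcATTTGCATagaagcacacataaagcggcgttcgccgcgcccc
Prrg4: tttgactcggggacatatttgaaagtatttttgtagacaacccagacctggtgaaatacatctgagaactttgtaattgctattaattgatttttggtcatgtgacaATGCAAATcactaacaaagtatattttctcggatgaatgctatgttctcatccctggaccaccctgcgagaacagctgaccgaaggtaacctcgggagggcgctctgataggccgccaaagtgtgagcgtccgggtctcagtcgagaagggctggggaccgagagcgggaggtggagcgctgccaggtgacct
Lgr4: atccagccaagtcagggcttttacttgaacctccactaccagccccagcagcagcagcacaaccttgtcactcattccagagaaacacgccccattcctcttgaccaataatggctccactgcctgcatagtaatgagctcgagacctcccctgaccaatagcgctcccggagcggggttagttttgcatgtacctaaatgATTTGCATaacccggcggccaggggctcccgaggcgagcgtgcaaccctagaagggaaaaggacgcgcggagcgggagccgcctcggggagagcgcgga
Egln3: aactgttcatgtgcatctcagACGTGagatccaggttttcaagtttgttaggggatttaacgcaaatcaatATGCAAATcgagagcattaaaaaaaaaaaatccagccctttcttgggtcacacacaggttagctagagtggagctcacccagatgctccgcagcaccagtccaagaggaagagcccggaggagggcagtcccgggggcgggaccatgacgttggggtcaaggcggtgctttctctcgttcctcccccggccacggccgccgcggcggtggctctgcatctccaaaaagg
Bnip3: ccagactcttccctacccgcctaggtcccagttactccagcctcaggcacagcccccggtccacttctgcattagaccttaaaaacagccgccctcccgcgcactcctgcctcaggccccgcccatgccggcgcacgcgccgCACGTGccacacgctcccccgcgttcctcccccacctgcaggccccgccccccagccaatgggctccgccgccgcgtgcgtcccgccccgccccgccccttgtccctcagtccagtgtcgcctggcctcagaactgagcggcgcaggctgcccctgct
Ddit4: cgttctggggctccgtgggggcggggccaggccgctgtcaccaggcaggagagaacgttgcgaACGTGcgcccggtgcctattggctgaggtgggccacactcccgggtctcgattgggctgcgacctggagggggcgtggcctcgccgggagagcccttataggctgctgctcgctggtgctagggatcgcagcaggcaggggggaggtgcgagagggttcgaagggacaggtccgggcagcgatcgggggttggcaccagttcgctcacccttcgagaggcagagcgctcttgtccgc

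Among the 98 members with a window, 6 (6.12%) held the octamer, against 1.97% of all 27025 genes with a window and 1.36% of the 6703 with both ends at 5 TPM. Besides the 4 shown, these were Gcnt2 and H2ac12. The GATA motif stood in 11 members (11.2%), against 12.7% of all genes and 6.88% of those at 5 TPM. ACGTG stood in 33 members (33.7%), against 21.8% and 32.1%. The SOX motif ACAATGG stood in 2 members (2.04%), against 4.15% and 2.09%. A match of letters is a description of the window, not evidence of a bound site.

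The largest fold between the low point and 168 h was that of Epas1, which encodes HIF-2α, an oxygen-regulated transcription factor. Epas1 (chr17:86753700-86833410 in mm10) read 14.8, 13.3 and 14.5 TPM at 0 h, but 1.99, 1.9 and 1.34 TPM at 48 h, and again 268, 249 and 290.0 TPM at 168 h. Its means were 4.84 TPM at 16 h and 2.9 TPM at 24 h on the way down, 14.2 TPM at 72 h and 44.5 TPM at 96 h on the way up, so that it was 8.16-fold below 0 h and 154-fold below 168 h at its lowest. The 3 groups did not overlap, and at 168 h every library stood far above its starting level. Kit (chr5:75574916-75656722), the receptor tyrosine kinase for stem cell factor, read 17, 14.7 and 19.2 TPM at 0 h, but 7.71, 7.13 and 6.3 TPM at 48 h, and again 289.7, 289 and 312 TPM at 168 h. It was 2.41-fold below 0 h and 42.1-fold below 168 h. Like Epas1, Kit was lowest at 48 h, and its 72 h mean already exceeded that of 0 h, although replicate 3 at 72 h (10.4 TPM) did not. Adam19, a membrane metalloproteinase, followed the same order with means of 19.5, 9.45 and 162 TPM at 0, 48 and 168 h. Hspb2, a small heat shock protein, was lowest already at 16 h, with 8.51, 4.44 and 3.62 TPM at 0 h, but 2.02, 1.71 and 2.04 TPM at 16 h, and again 48.5, 69.1 and 73.6 TPM at 168 h. Adam19 did not meet the rule without 0 h replicate 1 or 0 h replicate 2, nor Hspb2 without 0 h replicate 1.

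These genes are among the 15 members that ended more than 2-fold above 0 h. The others were Myof, a membrane repair ferlin (14.7, 5.47 and 98.9 TPM at 0, 48 and 168 h), Hbegf, an EGF family ligand (16.5, 7.02 and 52.7 TPM at the same times), Robo1, a receptor for SLIT ligands, Rap1gap, which inactivates RAP1, Lgals9, Egln3, Dab1, Bcar3, Celf5, Ddit4l and Gm15446. Robo1 went from 9.65 TPM at 0 h to 3.65 TPM at 72 h and 38.3 TPM at 168 h, and Rap1gap from 12.7 TPM to 4.37 TPM at 96 h and 63.4 TPM. Gm15446 read 36.3, 12.4 and 9.84 TPM at 0 h and 114, 4.24 and 4.04 TPM at 168 h. Only replicate 1 was high at 168 h, and without that library Gm15446 is not a member. Adam19, Myof, Hbegf, Robo1, Rap1gap and Igfbp2 were chosen for mention after their values were seen.

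**Figure D2:**
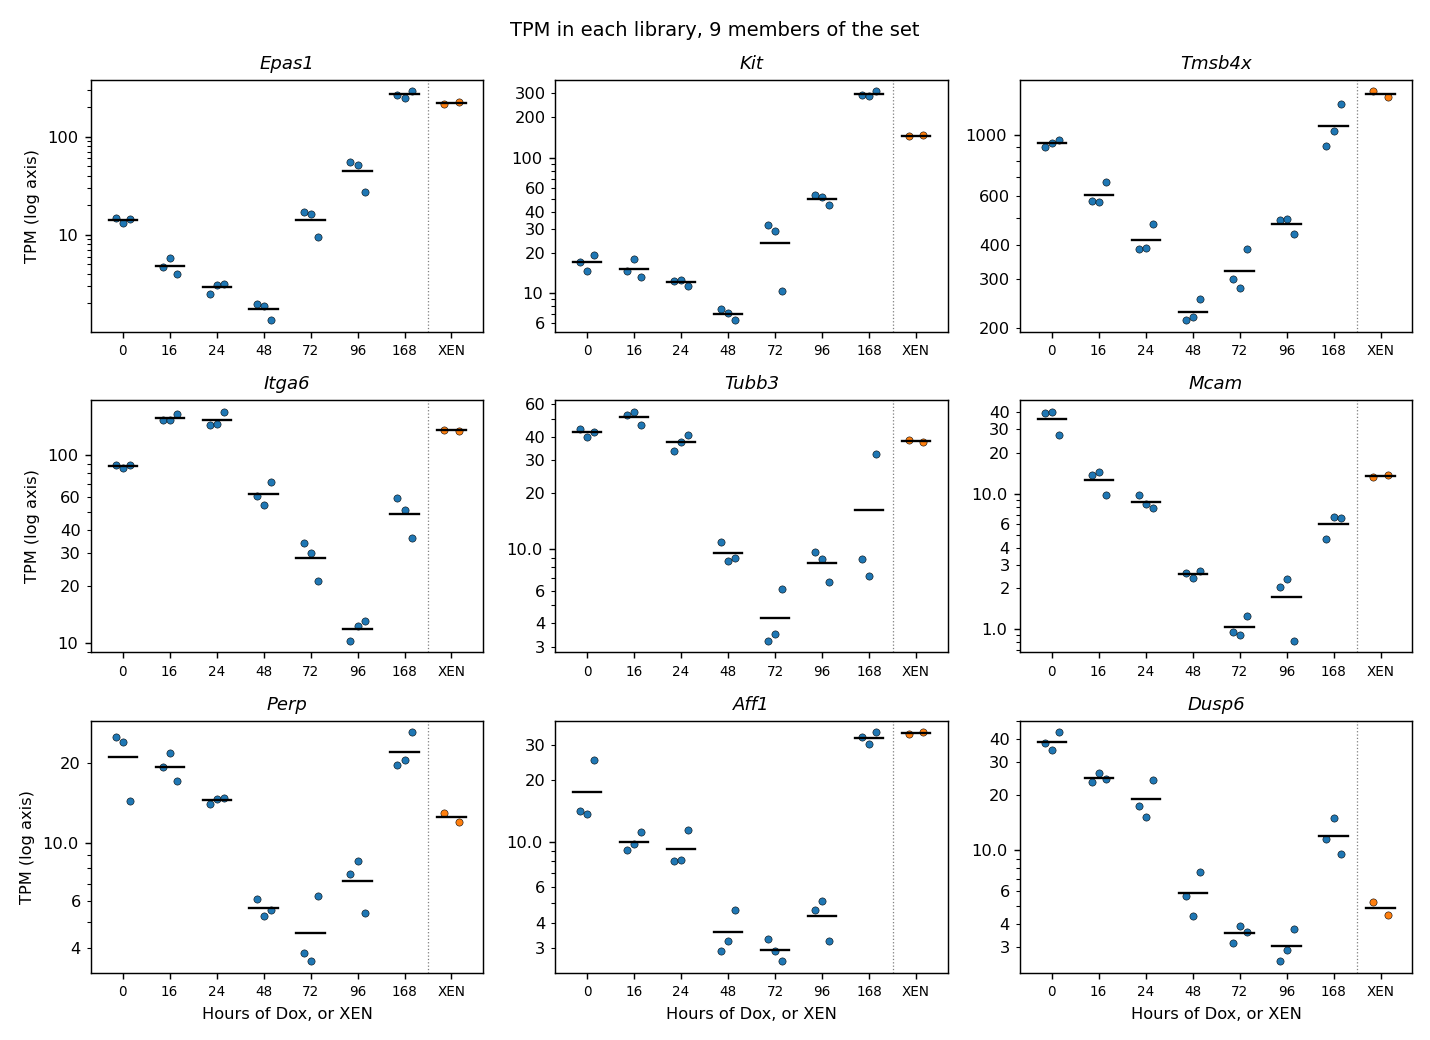
TPM of 9 members in each library (log axis) by hours of Dox and in XEN cells. Blue points are Dox libraries, orange points XEN libraries, and bars group means. Epas1 and Kit are lowest at 48 h and end far above 0 h, Tmsb4x returns to its starting level, and Tubb3 at 168 h rests on 1 high library.

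Genes of the cytoskeleton and of cell adhesion were 16 of the 52 members that were given a role by known function, an assignment made after the values were seen. Roles were given to members only, so no share over other genes stands beside this count. At 5 TPM at both ends, none of 15 SRF and actin contractility, 10 epithelial junction and 10 extracellular matrix genes was a member. The integrin and annexin lists, given below, did hold members. The most abundant member was Tmsb4x (chrX:167207093-167209315), thymosin β4, which binds monomeric actin. Tmsb4x read 905, 935 and 953 TPM at 0 h, but 213, 219 and 254 TPM at 48 h, and again 913, 1027 and 1285 TPM at 168 h. Its libraries were 4.07-fold lower at 48 h than at 0 h in the mean, did not overlap with either end, and were on the way back at 72 h (321 TPM) and 96 h (475 TPM). Itga6 (chr2:71745616-71858416), the laminin receptor subunit integrin α6, was first higher, at 155, 155 and 165 TPM at 16 h, before it reached its low point. It read 88.3, 85.2 and 88.8 TPM at 0 h, but 10.3, 12.3 and 13.1 TPM at 96 h, and again 59.3, 51 and 36.2 TPM at 168 h. Mcam, the adhesion molecule CD146, showed the largest loss relative to 0 h of all members, 34.3-fold, with 39.2, 40.4 and 27.1 TPM at 0 h, but 0.954, 0.902 and 1.26 TPM at 72 h, and again 4.62, 6.72 and 6.67 TPM at 168 h. Its return was partial, since each 168 h library was above each 72 h library but far below each 0 h library.

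Tubb3, a β-tubulin of neurons, read 44.4, 40.2 and 42.5 TPM at 0 h, but 3.23, 3.51 and 6.14 TPM at 72 h, and again 8.85, 7.23 and 32.5 TPM at 168 h. Only replicate 3 was high at 168 h, and without that library Tubb3 is not a member. Anxa6, a calcium-dependent membrane-binding annexin, read 52.9, 49.2 and 43.2 TPM at 0 h, but 10.01, 10.9 and 20.6 TPM at 72 h, and again 40.7, 37.2 and 36 TPM at 168 h. Cd44, a hyaluronan receptor, averaged 6.94 ± 3.01 TPM at 0 h, only 2.5 ± 0.174 TPM at 48 h, and then 8.14 ± 0.107 TPM at 168 h (mean ± SD of 3 libraries). Cd24a, a surface glycoprotein, averaged 30.2 ± 7.15 TPM at 0 h, only 5.68 ± 0.881 TPM at 96 h, and then 12.8 ± 3.46 TPM at 168 h (mean ± SD of 3 libraries). Perp, a desmosome-associated p53 target, read 25.1, 24.1 and 14.4 TPM at 0 h, but 3.82, 3.57 and 6.29 TPM at 72 h, and again 19.6, 20.5 and 26.2 TPM at 168 h, and was the single member among 15 p53 target genes, all of which were at 5 TPM at both ends. Synj2, an inositol phosphatase, was 4.93-fold below 0 h at 48 h. On the list of integrins and CD surface proteins, 3 of the 12 genes at 5 TPM at both ends were members (Itga6, Cd44 and Cd24a), and on that of annexins, S100 proteins and galectins 2 of 13 (Anxa6 and Lgals9). Lgals9, galectin-9, went from 9.7, 8.84 and 6.17 TPM at 0 h to 2.34, 4.42 and 3.86 TPM at 48 h and 43.7, 47.3 and 80.3 TPM at 168 h.

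Another group, 19 members by the same assignment, holds ligands, receptors and other signalling proteins. Dusp6 (chr10:99263231-99267489), the phosphatase that limits ERK, read 37.9, 34.7 and 43.7 TPM at 0 h, but 2.51, 2.9 and 3.72 TPM at 96 h, and again 11.5, 14.9 and 9.52 TPM at 168 h. It regained 30.9% of its 0 h mean, and was the single member on a list of 12 ERK feedback and target genes, of which 9 had a mean 2-fold or more below 0 h at some time between 16 and 96 h. The other 8 of these missed the rule through their 168 h level. On the WNT list, Sfrp1, a secreted modulator of WNT ligands, read 16, 15 and 18 TPM at 0 h, but 1.57, 1.51 and 1.41 TPM at 96 h, and again 7.24, 9.77 and 7.43 TPM at 168 h, and Lgr4, the R-spondin receptor, read 27.4, 27.6 and 25.4 TPM at 0 h, but 11.9, 11.1 and 12.5 TPM at 72 h, and again 27, 24.2 and 33 TPM at 168 h. Both were clear of overlap, with Sfrp1 returning to 49.9% and Lgr4 to 105% of the 0 h mean. Porcn, the acyltransferase that makes WNT ligands fit for secretion, averaged 28.8 ± 7.29 TPM at 0 h, only 8.63 ± 1.85 TPM at 96 h, and then 18.9 ± 6.02 TPM at 168 h (mean ± SD of 3 libraries). Notch3 averaged 9.51 ± 2.5 TPM at 0 h, only 4.37 ± 0.67 TPM at 72 h, and then 15.5 ± 4.67 TPM at 168 h (mean ± SD of 3 libraries). Rarg, retinoic acid receptor γ, read 54, 54.4 and 57.5 TPM at 0 h, but 5.79, 5.97 and 6.25 TPM at 72 h, and again 13.2, 14.9 and 27.7 TPM at 168 h, and was the single retinoid gene of 12 with both ends at 5 TPM. Igfbp2, which binds insulin-like growth factors, went from 251, 232 and 209 TPM to 19.1, 21.5 and 15 TPM at 96 h and was at 36.9, 38.6 and 45.8 TPM at 168 h, a return to 17.5% of 0 h.

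Transcription regulators made up 9 assigned members. Besides Epas1 and Rarg they include Aff1, a scaffold of the super elongation complex, which read 14.1, 13.7 and 25.1 TPM at 0 h, but 3.32, 2.91 and 2.59 TPM at 72 h, and again 32.7, 30.3 and 34.6 TPM at 168 h. Plagl1, an imprinted zinc finger gene, was uneven at 0 h (2.98, 1.25 and 14.3 TPM), so its 0 h and 96 h libraries (1.25, 1.8 and 0.994 TPM) overlapped. The remaining regulators were Zfp423, Mitf, Sox13, Nkx6-2 and Mybl1. Other deep dips belonged to genes of varied function. Zfp365, a zinc finger gene, read 15.8, 16.1 and 8.95 TPM at 0 h, but 1.02, 1.03 and 4.18 TPM at 72 h, and again 20.0, 22.5 and 38.2 TPM at 168 h. Tesc, the calcium-binding protein tescalcin, read 7.7, 9.33 and 6.27 TPM at 0 h, but 0.264, 0.486 and 0.324 TPM at 72 h, and again 4.33, 9.1 and 2.65 TPM at 168 h. Prrg4, a transmembrane Gla protein, read 17.9, 16.3 and 11.2 TPM at 0 h, but 2.53, 2.33 and 2.84 TPM at 72 h, and again 10.3, 11 and 20.1 TPM at 168 h. Tor3a, a torsin ATPase, was 9.86-fold and Fbxo2, an F-box protein that recognises glycans, 3.56-fold below 0 h at 72 h, and both were clear of overlap.

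Another group of 8 members answers to oxygen, nutrients or stress, and 3 of them (Bnip3, Egln3 and Ddit4) were uneven between replicates. Bnip3, a mitophagy receptor induced by hypoxia, read 95.8, 98.6 and 30.1 TPM at 0 h, but 28.7, 25 and 49.5 TPM at 24 h, and again 88.9, 109 and 67.1 TPM at 168 h, and was higher than at 0 h at 72 h in 2 libraries, with 266, 305 and 32.1 TPM. Replicate 3 at 0 h overlapped with the 24 h libraries, so Bnip3 is 1 of the 15 members whose groups were not separated. Egln3, an oxygen-sensing prolyl hydroxylase, read 20.7, 22.2 and 9.92 TPM at 0 h, but 6.34, 4.5 and 9.47 TPM at 24 h, and again 96.5, 120.0 and 65.7 TPM at 168 h, and 26.6, 26.6 and 2.65 TPM at 72 h. Ddit4, which restrains mTORC1, read 85.1, 82.9 and 39.6 TPM at 0 h, but 28, 25.3 and 34.4 TPM at 24 h, and again 78.5, 86.4 and 116 TPM at 168 h, and 78.6, 89.3 and 36.1 TPM at 72 h. In all 3 genes replicate 3 was the lowest library at 0 h and at 72 h. The same held outside the set, since of the 16 hypoxia and glycolysis genes on the list that were not members, 15 were lowest in replicate 3 at 0 h and 16 at 72 h. Their summed level at 72 h was 16755 and 18064 TPM in replicates 1 and 2 and 10298 TPM in replicate 3. The 72 h replicate 3 library also held more fibroblast marker RNA, with a sum of 258 TPM against 101 and 119 TPM in replicates 1 and 2. The part of this in the hypoxia genes was not tested.

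Genes of the integrated stress response, which adapts translation to stress through ATF4, were also present. Chac1, which degrades glutathione, read 18.5, 15.7 and 18.5 TPM at 0 h, but 1.4, 1.42 and 1.1 TPM at 96 h, and again 5.3, 8.95 and 3.79 TPM at 168 h. Trib3, a pseudokinase of the ATF4 pathway, read 40.0, 37.6 and 41.4 TPM at 0 h, but 4.45, 4.56 and 5.06 TPM at 96 h, and again 10.8, 12.9 and 9.63 TPM at 168 h. Both were lowest at 96 h and regained 34.3% and 28% of the 0 h mean. Of the 14 genes on that list, 12 were at 5 TPM at 0 h, 7 of these had a mean 2-fold or more below 0 h between 16 and 96 h, and 3 (Chac1, Trib3 and Ddit4) also met the rule at 168 h. Ier2, an immediate early gene, averaged 122 ± 14.5 TPM at 0 h, only 59.8 ± 11.6 TPM at 96 h, and then 158 ± 25.3 TPM at 168 h (mean ± SD of 3 libraries), and replicate 3 at 72 h (44.5 TPM) was lower than the others (116 and 117 TPM). It was the single member among 18 immediate early genes, 12 of them at 5 TPM at both ends.

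**Figure D3:**
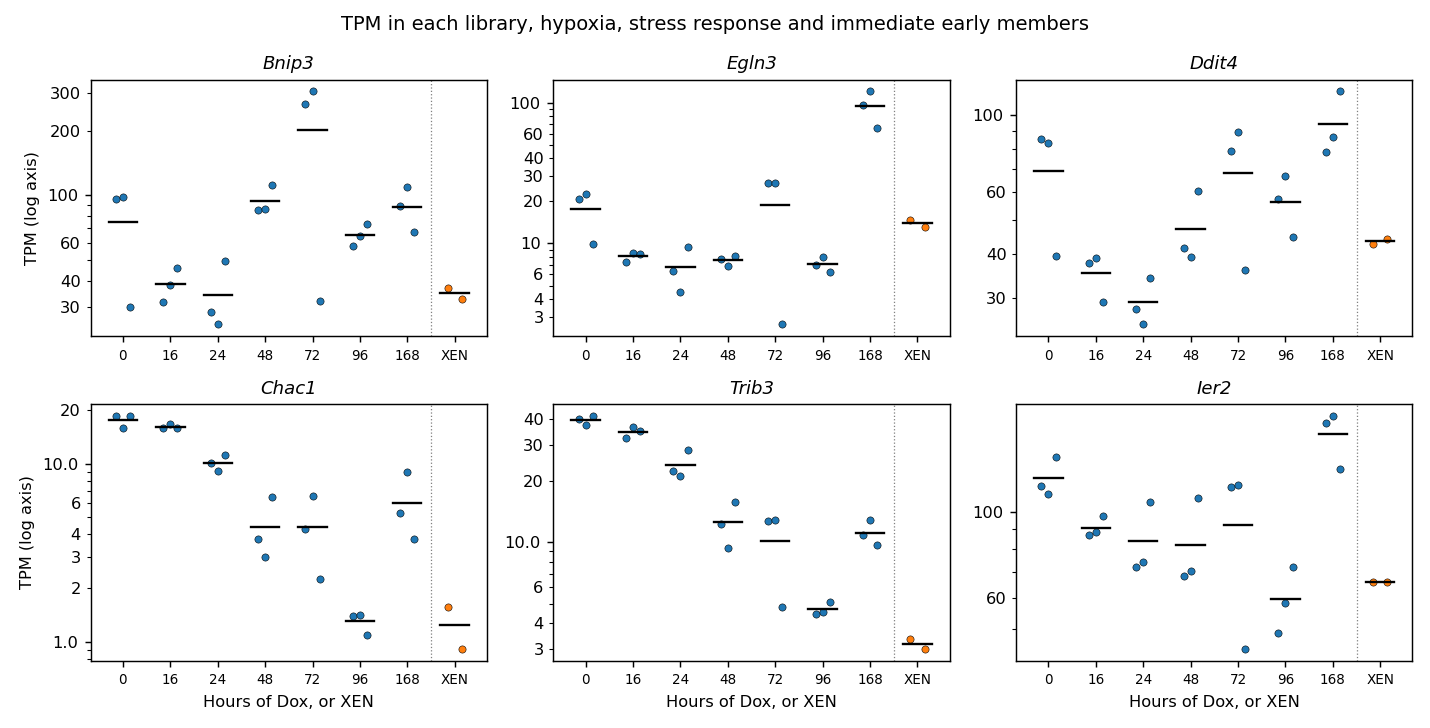
TPM of 6 hypoxia, stress response and immediate early members in each library (log axis) by hours of Dox and in XEN cells, with bars for group means. Replicate 3 lies far below the other 2 libraries of 72 h in Bnip3 (32.1 against 266 and 305 TPM) and Egln3 (2.65 against 26.6 TPM in each), while Chac1 and Trib3 are lowest at 96 h.

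The 15 members with overlapping libraries include 2210418O10Rik, a protein-coding gene with one of the deepest dips in its means. Its values were scattered, with 11.9, 104 and 7.47 TPM at 0 h and 75.9, 2.22 and 2.91 TPM at 168 h against 2.77, 3.96 and 0.0101 TPM at 96 h. Gm6565, a processed pseudogene, was listed at 0 in 2 of 3 libraries at 24 h and at 46.6 TPM in the other. H2ac13, a histone gene, was listed at 0 in 1 library each at 16, 24 and 168 h. Rmrp, the RNA of RNase MRP, was also scattered, with 15, 24.4 and 16 TPM at 0 h and 2.81, 15.5 and 6 TPM at 24 h. Reads of pseudogenes and of histone genes can be shared with near-identical copies, so these values are uncertain. Hotairm1, annotated antisense in the HoxA cluster, met the separation at 24 h (0.385, 0.426 and 0.294 TPM), but its libraries at 16 h (0.314, 4.72 and 19.4 TPM) and 48 h (0.589, 1.25 and 21.5 TPM) varied more than its dip. The counting used strand, so antisense genes were counted apart from their partners. E030030I06Rik was lowest at 16 h (3.6, 5.65 and 5.96 TPM) and uneven at 0 h (9.32, 35.7 and 7.58 TPM).

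The threshold itself cuts a continuum. Members just inside it included Prpf40b and Map3k10, whose low points were each 49.8% of the nearer end. The genes just outside were Gm3055 (50.1%), Lrch1 (50.1%) and Notch1 (50.1%). Of the members, 69 lay above 40.0% of the nearer end, and 163 further genes lay between 50% and 60.0%. With any 1 of the 21 time-course libraries left out, between 127 and 165 genes met the rule, the highest count being without replicate 3 at 72 h. Of the 133 members, 78 met it under every one of these 21 omissions, among them Epas1, Kit, Tmsb4x, Itga6, Mcam, Dusp6, Perp, Sfrp1, Anxa6, Aff1, Rarg, Egln3 and Ddit4. Leaving out 168 h replicate 3, the library of that time with the highest feeder and Pou5f1 levels, removed 11 members. These were Tubb3, Ccl2, Nfkbia, Lrp1, Gm4419, Akap11, Igsf9b, Map3k10, Ston2, Tmem63a and Usp2. The other libraries of that time removed similar numbers, 10 for replicate 1 and 12 for replicate 2.

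XEN cells show the level of each gene in an established extra-embryonic endoderm line. Of the 133 members, 105 had a XEN mean of at least 5 TPM and 28 had less, and for 75 the XEN mean was at least 2-fold above the low point, against 20.6% of all genes with both ends at 5 TPM (1736 of 8441). The low point was chosen to be low, so this share is read as a description. Another 58 members did not clear 2-fold in XEN cells, and 17 were below their low point there. Return at 168 h thus did not always go with a high XEN level.

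Compared with 0 h (limma, adjusted p under 0.05 and more than 1 on the log2 scale), 15 members were higher in XEN cells and 32 were lower. Over all 15057 genes tested, 18.9% were higher and 18.7% lower, and over the 8441 genes with both ends at 5 TPM 17.9% and 12.3%. Compared with 168 h, 15 members were higher in XEN cells and 31 lower, against 4.73% and 9.17% of all genes tested and 3.29% and 7.62% of those with both ends at 5 TPM. As shares of the members these are 11.3% and 24.1% at 0 h and 11.3% and 23.3% at 168 h. The 0 h and 168 h libraries that chose the members enter these comparisons, and both comparisons share the XEN libraries. The median log2 difference of the members was -0.29 against 0 h and -0.30 against 168 h, where all genes tested had medians of -0.01 and -0.14. Rescaling by median of ratios moved the median of all genes against 168 h to -0.02 and that of the members to -0.13, and the share of higher calls among all calls from 34.0% to 46.5%. In that scaling 18 members were higher and 24 lower than at 168 h. In all, 66 members were called in neither comparison, 5 were higher and 19 lower than at both times.

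The members furthest above 168 h were Anxa6, Ndst1, Cd44, Gm4419 and Tubb3. Anxa6 was at 201 and 194 TPM in the 2 XEN libraries, 2.35 ± 0.19 (SE) above 168 h on the log2 scale (limma adjusted p = 1.21e-08). Ndst1, which modifies heparan sulphate, was at 44.1 and 46.5 TPM against 7.5, 8.11 and 13.5 TPM at 168 h, a difference of 2.16 ± 0.17 (limma adjusted p = 4.96e-09). Cd44 was at 32.8 and 32.9 TPM, 1.89 ± 0.38 above 168 h (limma adjusted p = 0.000469). Each XEN library of these 3 genes lay above every library of the time course. Tubb3 was at 38.6 and 37.8 TPM, close to its 0 h level, and 1.49 ± 0.37 above 168 h (limma adjusted p = 0.0027). Itga6 was at 137 and 134 TPM, 1.48 ± 0.18 above 168 h (limma adjusted p = 1.45e-06), and Mcam at 13.4 and 13.8 TPM was 1.08 ± 0.23 above 168 h and different from 0 h by -1.30 ± 0.23 (limma adjusted p = 0.000651 and 4.3e-05). Gm4419, an antisense gene, was at 19.4 and 13.1 TPM with scattered values at 168 h (1.06, 2.62 and 11.9 TPM). The calls against 168 h were lost for Mcam without 168 h replicate 1 and for Gm4419 without that library or XEN replicate 1.

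The members furthest below 168 h were E030030I06Rik, Rmrp, Aplp1, Dab1 and Lgals9. Aplp1, of the amyloid precursor family, was at 6.87 and 7.26 TPM in XEN cells against 69.7, 92.6 and 55.5 TPM at 168 h, a difference of -3.16 ± 0.33 (limma adjusted p = 3.37e-07). Dab1, the adaptor of reelin receptors, was at 0.192 and 0.425 TPM against 11, 14.1 and 6.81 TPM (-3.11 ± 0.27, limma adjusted p = 2.07e-08). Lgals9 was at 4.92 and 6.2 TPM, a difference of -3.10 ± 0.31 from 168 h (limma adjusted p = 1.92e-07). Its XEN mean (5.56 TPM) lay between its means at 48 h (3.54 TPM) and 0 h (8.24 TPM). Each of these 3 genes had its XEN libraries below every 168 h library. Rarg and Sfrp1 returned in part at 168 h but were at 2.11 and 1.83 TPM and 0.182 and 0.162 TPM in XEN cells, with differences of -2.65 ± 0.21 and -2.95 ± 0.18 (limma adjusted p = 9.56e-09 and 2.43e-10). Dusp6, Chac1 and Trib3 also had lower XEN levels, and their values dropped by 1.13, 1.59 and 1.53 on the log2 scale. E030030I06Rik was at or below 0.0506 TPM in both XEN libraries, and Rmrp was listed at 0 in 1 of them. The calls against 168 h were lost for Rmrp without 168 h replicate 1 or XEN replicate 1, and for Dusp6 without 168 h replicate 2 and under median-of-ratios scaling.

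The next values follow the members by the level at which they ended. Since the 0 h libraries that define these classes also enter the comparison with XEN cells, a like direction is favoured by the choice, and the counts are a description. Of the 15 members more than 2-fold above 0 h at 168 h, 8 were called higher in XEN cells than at 0 h and 1 was lower (Dab1), where 18.9% and 18.7% of all genes tested were. Epas1 was at 215 and 226 TPM, 3.87 ± 0.24 above 0 h (limma adjusted p = 3.58e-11) and not distinguishable from 168 h (-0.28 ± 0.24, limma adjusted p = 0.358). Hspb2 was at 66.6 and 64.1 TPM, 3.42 ± 0.26 above 0 h (limma adjusted p = 7.02e-10). Kit was at 145 and 147 TPM, 3.04 ± 0.28 above 0 h (limma adjusted p = 9.39e-09) and -1.02 ± 0.28 relative to 168 h (limma adjusted p = 0.00518), a call that was lost without 168 h replicate 3 and under median-of-ratios scaling. Adam19, Myof, Hbegf, Robo1 and Bcar3 were the other 5 called higher than 0 h, with log2 differences of 2.69, 2.15, 2.02, 2.67 and 1.85. By contrast, Egln3 and Rap1gap were high at 168 h but at 14.6 and 13 TPM and 14.9 and 16.8 TPM in XEN cells, with differences from 168 h of -2.64 ± 0.58 and -1.90 ± 0.38 (limma adjusted p = 0.00101 and 0.00038). Of the 19 members 2-fold or more below 0 h at 168 h, 15 were called lower in XEN cells than at 0 h and none was called higher, with the same 0 h libraries on both sides. Tmsb4x, at 1435 and 1372 TPM, differed from 0 h by 0.59 ± 0.14 and from 168 h by 0.40 ± 0.14, below the fold required.

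**Figure D4:**
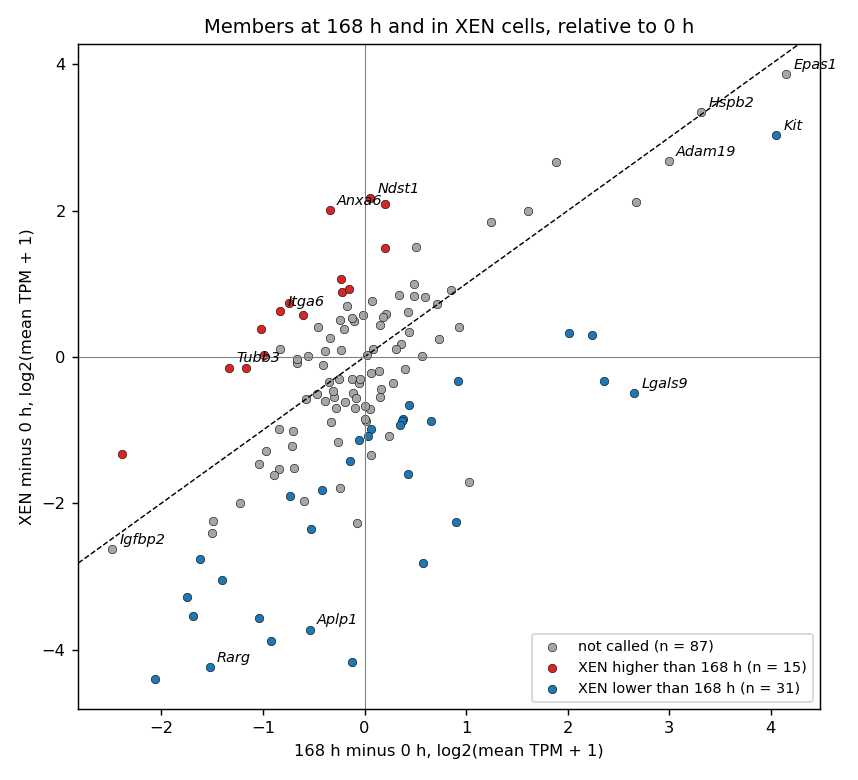
Each point is a member, placed by the difference in log2(mean TPM + 1) between 168 h and 0 h (x axis) and between XEN cells and 0 h (y axis), with the dashed line where XEN cells equal 168 h. Red points (n = 15) are called higher and blue points (n = 31) lower in XEN cells than at 168 h, and Epas1, Hspb2, Kit and Adam19 lie at the upper right.

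The siCTL libraries give 48 h levels that did not choose the members, but they are set against the 0 h mean, which did, so a low ratio is favoured by the choice and the shares are a description. Its table is limited to 6275 genes with a GATA6 response by the authors' calls, 123 of the 133 members among them, and was normalised apart from the induction table, so levels are set side by side without a test. Of these 123 members, 116 had a siCTL mean below their 0 h mean and 73 a mean 2-fold or more below it, against 21.6% of the 4145 listed genes at 5 TPM at 0 h. The median member stood at 44.0% of its 0 h mean in the siCTL libraries and at 43.1% at 48 h of the induction series. Over the listed genes at 5 TPM at 0 h the median in the siCTL libraries was 105%. Of the 87 members 2-fold or more below 0 h at 48 h in the induction series, 84 were listed and 56 of these were also 2-fold or more below 0 h in the siCTL mean. For example, the lowest, median and highest siCTL values were 184, 238 and 319 TPM for Tmsb4x, 2.73, 3.58 and 8.51 TPM for Epas1, 0.723, 4.49 and 9.58 TPM for Dusp6 and 1.3, 4.18 and 5.57 TPM for Rarg. Chac1 (4.93, 15.3 and 30.9 TPM) and Trib3 (10.5, 15.5 and 42.4 TPM) were less low there than at 48 h of the induction series (4.43 and 12.5 TPM).

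To ask what Oct4 contributes while GATA6 is induced, the siOct4 and siCTL libraries were compared. The knock-down was present in every library, with Pou5f1 between 282 and 387 TPM under siOct4 and 782 and 1194 TPM under siCTL. Among the 123 members, 6 were higher and 1 was lower with siOct4 (limma, adjusted p under 0.05 and more than 0.5 on the log2 scale), against 0.942% of the 6264 genes tested that were higher and 1.72% that were lower. The 7 genes were Epas1, Kit, Tmsb4x, Anxa6, Tubb3 and Trap1a, which rose, and Porcn, which fell. At an unadjusted p under 0.05 there were 18 of the 123 members and 867 of the 6264 genes tested, a similar share. The median log2 difference was 0.16 over the members and -0.12 over all genes tested, and under median-of-ratios scaling 0.26 and 0.01, with the share of higher calls among all calls moving from 35.3% to 48.5%. Deviations of same-numbered libraries were positively correlated (0.236 to 0.707), so the numbers were taken as pairs, although the labels do not name pairs. With the replicate block 11 members were higher and 1 was lower. The block added Nup62cl, Hspb2, Adam19, Arl4c and Rnd2 to the genes that were higher (limma adjusted p between 0.0123 and 0.0338).

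Epas1 rose most, from a lowest, median and highest value of 2.73, 3.58 and 8.51 TPM with siCTL to 10.2, 30.8 and 51.8 TPM with siOct4, a difference of 2.43 ± 0.34 (SE, log2 scale, limma adjusted p = 0.00169). The groups did not overlap and all 6 pairs moved the same way. Tmsb4x rose from 184, 238 and 319 TPM to 369.9, 525 and 599 TPM, a difference of 1.01 ± 0.17 (limma adjusted p = 0.00383), again with no overlap. Its window holds the octamer shown above, which lies after the start of transcription. Of the 7 genes called, only Tmsb4x was found with the octamer, while Epas1 and Anxa6 had no window. A link between the octamer and the response to siOct4 was not tested. Kit had 5.17, 7.21 and 8.24 TPM with siCTL and 7.04, 21.6 and 34.4 TPM with siOct4 (1.35 ± 0.31, limma adjusted p = 0.03), and its lowest siOct4 library lay within the siCTL range. Anxa6 had 19.8, 26.8 and 37.7 TPM and 36.7, 46.5 and 74.7 TPM (0.86 ± 0.21, limma adjusted p = 0.0388), with 1 siCTL library reaching into the siOct4 range. Tubb3 had 2.47, 5.29 and 6.73 TPM and 7.49, 10.2 and 13.3 TPM (0.93 ± 0.23, limma adjusted p = 0.0476). Trap1a, an X-linked tumour antigen gene, had 71.3, 90.5 and 102 TPM and 122, 142 and 182 TPM (0.70 ± 0.13, limma adjusted p = 0.00961). Porcn had 8.42, 9.12 and 17.5 TPM and 2.98, 4.55 and 6.58 TPM (-1.01 ± 0.24, limma adjusted p = 0.0335). Tubb3, Trap1a and Porcn did not overlap between the groups, and in all 7 genes each of the 6 pairs moved the same way. The Trap1a call was lost under median-of-ratios scaling (0.85, limma adjusted p = 0.0719) and the Tubb3 call with a pseudocount of 0.1 (limma adjusted p = 0.052). For Epas1, Kit, Tmsb4x and Trap1a, the 48 h means of the induction series stood beside these at 1.74, 7.05, 229 and 70.0 TPM.

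**Figure D5:**
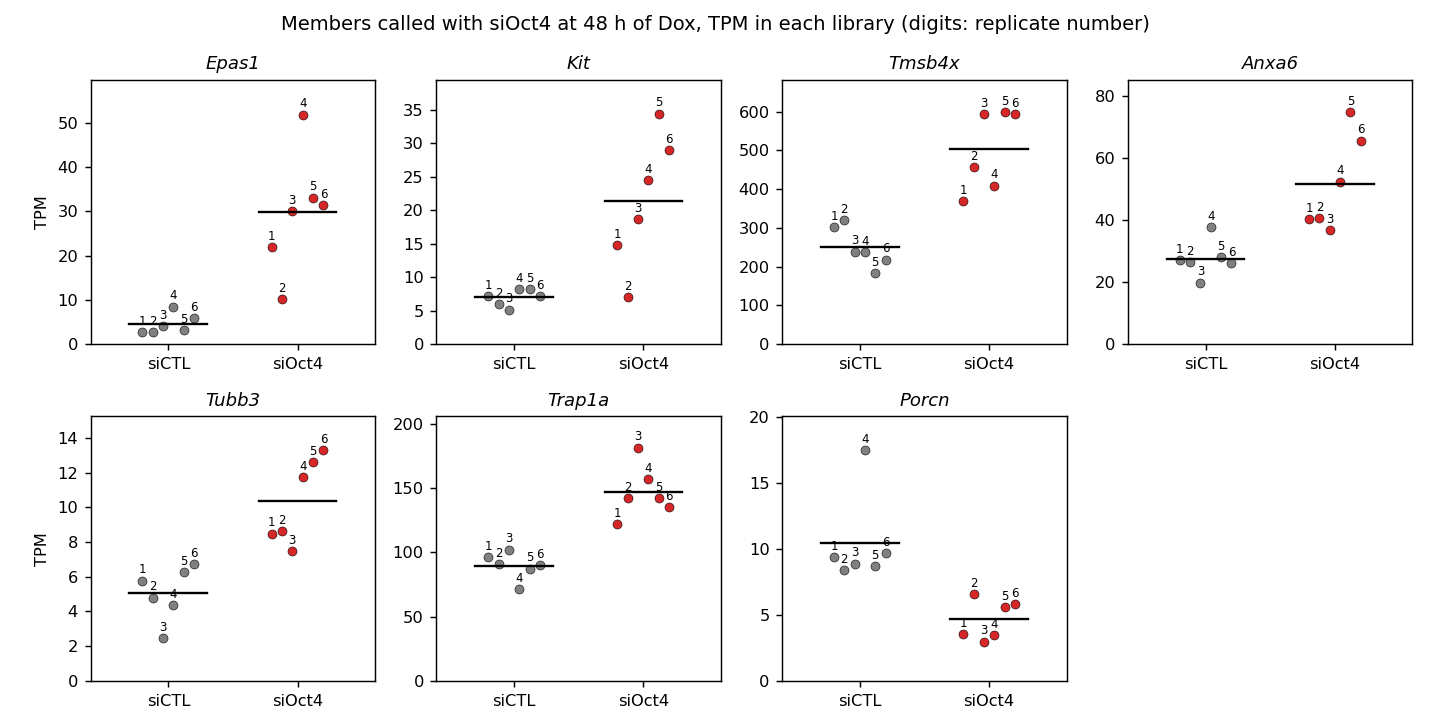
TPM in each siRNA library at 48 h of Dox for the 7 members called with siOct4 (linear axes from 0, grey siCTL, red siOct4, digits for replicate numbers, bars for group means). Epas1, Tmsb4x, Tubb3 and Trap1a are higher in every siOct4 library, Kit and Anxa6 overlap in part, and Porcn is lower.

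With the replicate block and all 6 pairs, each of these 7 genes was called (limma adjusted p of 0.0176 or lower). The block was not fitted with a pair left out, so how firmly the paired calls hold is not known. Fits without the block lost several of these calls when 1 pair was left out. Of the 7, Epas1 and Tmsb4x were called with each of the 6 replicate numbers left out in turn, Trap1a with 4 of 6, and Kit, Anxa6, Tubb3 and Porcn with 1 of 6 each. Counts of higher members were 3, 4, 5, 3, 2 and 2 without replicates 1 to 6, and the lower member was called only in the fit without replicate 3. Replicate 3 held the lowest value of its group for 90 of the 123 members in siCTL and for 72 in siOct4. The sum of the 10 fibroblast markers in this table ranged from 43.5 to 308 TPM in siCTL libraries and from 45.7 to 306 TPM in siOct4 libraries, being higher with siCTL in pairs 1, 2 and 4 and with siOct4 in pairs 3, 5 and 6, and its part in these differences was not tested. Without the block, differences that did not pass the test include Dusp6 (-0.27 ± 0.47), Rarg (-0.36 ± 0.33), Itga6 (0.48 ± 0.63) and Lgr4 (-0.10 ± 0.32), whose octamer-bearing promoter is shown above. Egln3 (0.30 ± 0.40) and Prrg4 (0.39 ± 0.53), which also hold the octamer, did not pass either. With the block none of these genes was called, Itga6 being closest (0.48 ± 0.15, limma adjusted p = 0.0656). For the 15 members that ended more than 2-fold above 0 h, the median difference was 0.30 and 12 of 15 were positive, while for those that ended 2-fold or more below 0 h 8 of 19 were positive with a median of -0.02. The other 89 listed members had a median of 0.14 with 60 positive, and over all listed members 80 of 123 were positive. The classes were not tested against each other. The share of positive differences over all genes tested was not counted, and their median was -0.12.

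The set was also read against 41 lists of genes of pathways and cell types, on which 20 of the 133 members stood, on 13 lists. No member stood on the lists of pluripotency genes (8 of 16 at 5 TPM at both ends), PrE genes (7 of 20) or fibroblast markers (7 of 20), nor on those of heat shock, cholesterol and fatty acid synthesis, lysosome, SRF and actin contractility, epithelial junction, interferon or extracellular matrix genes. For 2 lists, the mitochondrially encoded and the replication-dependent histone genes, no symbol was found in the table, although H2ac12 and H2ac13, histone genes under newer symbols, are members. On the list of receptor tyrosine kinase and FGF genes Kit was the single member, with 6 of the 8 genes at 5 TPM at 0 h reaching a mean 2-fold or more below 0 h between 16 and 96 h. On the list of imprinted genes this held for 6 of 14, Plagl1 being the single member. The neural list held Tubb3 alone, with 6 of 6 genes at 5 TPM at 0 h reaching such a low mean. Over all genes at 5 TPM at 0 h the share with such a low mean was not counted. These list counts, here and above, are therefore a description only. In XEN cells, 5 of the 18 hypoxia and glycolysis genes tested were lower than at 168 h and none was higher (limma), and among 13 integrated stress response genes tested 4 were higher and 4 lower, beside 4.73% higher and 9.17% lower over all genes tested. Of the 10 listed genes in each of these 2 groups in the siRNA table, none was called with siOct4.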

How the data were processed

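Poly(A) RNA was profiled in 35 libraries, 23 of an induction series and 12 of an siRNA series. The authors aligned stranded paired-end reads to mm10 with STAR after bcl2fastq and cutadapt and counted them by strand with RSEM. A principal component analysis served to remove outliers before the conversion to TPM. Whether these were genes or libraries is not stated. TPM values per gene were deposited in 1 table for each series (software versions are not given in the sources used here). TPM is scaled to 1 total per library and keeps no depth, so the depth per library is unknown and no counting interval is given. Totals per induction library were 999764 to 999881 TPM. The siRNA table holds part of the genes (274527 to 355895 TPM per library), and levels of both tables are not on 1 scale.

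Groups were taken from the sample labels. Of symbols on more than 1 row (n = 60), the row with the highest mean was used. Values were analysed as log2(TPM + 1), so that differences of low genes are understated. The 23 induction libraries entered 1 limma fit (limma 3.58.1 in R 4.3.3, trend and robust, 15057 genes whose mean reached 1 TPM in some group) and the 12 siRNA libraries another (6264 genes). Adjusted p-values are Benjamini-Hochberg values over all genes tested, two-sided, with calls at 0.05 and more than 1 (induction) or 0.5 (siRNA) on the log2 scale. By the study's methods the replicates were independent (3 per time, 2 for XEN cells, and 6 knock-downs in the siRNA series), without a statement of how cultures were separated. No columns held identical values, and the highest correlation between libraries was 0.993. The fits were tested on simulated data. Means, counts, sequences and figures were made in Python 3.11.15 (pandas 2.3.3, matplotlib 3.10.9).

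The members, the lists and the tests were chosen with earlier results of these data known. Named genes were the 15 members with the deepest dip among those whose libraries did not overlap, the 3 deepest for each time of the low point, every member on a list, members called with siOct4, the 5 furthest each way from 168 h in XEN cells, and 3 genes on each side of the threshold (1 of them is not reported here), while roles and genes mentioned beyond these were chosen after their values were seen. Replicate numbers were taken as pairs where same-numbered libraries of both groups deviated together. In the siRNA series the 6 correlations of their deviations from the group means ran from 0.236 to 0.707. Replicate 3 gave the highest, and the others were at most 0.274. Deviations cancel within a group, which largely fixes the mean for libraries of unlike number (-0.064). That mean is therefore no separate evidence of pairing. For XEN cells the correlations of same-numbered libraries ran from -0.036 to -0.009. Alternatives were other pseudocounts, filters, scalings, thresholds, sample sets, a replicate block and the omission of libraries.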

Additional observations from a re-analysis of the deposited data

Results flagged for a closer look

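In groups of 6 siRNA libraries, 1 library of the group stood further from the others than Dixon's critical value of 0.625 in 9 of 82 groups examined for the named members, where chance alone at 1 in 20 gives 4.1. In 5 of these it was siCTL replicate 3, with the lowest value. Lgr4, the R-spondin receptor, was at 5.728 TPM there against 18.05 to 22.53 TPM in the others, Sfrp1, a modulator of WNT ligands, at 2.937 TPM against 11.35 to 14.65 TPM, and the transmembrane protein gene Prrg4 at 0.1356 TPM against 4.406 to 5.128 TPM. The receptor gene Notch3 was at 0.5084 TPM against 2.186 to 3.967 TPM, and Perp, a desmosome-associated p53 target, at 3.852 TPM against 7.309 to 10.11 TPM. The same library had the lowest siCTL value of 90 of the 123 listed members. What sets it apart was not tested.

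The pseudogene Gm6565 was listed at 0 TPM in siCTL replicate 5, where the others had 19.41 to 65.2 TPM, and at 0 TPM in siOct4 replicate 2, where the others had 41.52 to 126.6 TPM. Gm4419 was at 7.393 TPM in siOct4 replicate 6 against 1.883 to 2.512 TPM in the others. Porcn, the acyltransferase of WNT ligands, was at 17.49 TPM in siCTL replicate 4 against 8.421 to 9.674 TPM in the others. Its call with siOct4 was lost without that replicate number, in a fit without the block.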

How the results depend on the processing

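The membership rule gave 133 genes, 379 with a minimum of 1 TPM at both ends, 78 with 10 TPM and 37 with a 3-fold in place of a 2-fold dip. With libraries or a replicate number left out it gave from 127 to 182. Medians of libraries gave 166 and median-of-ratios scaling 108. Without a fold minimum, 35 members were higher and 53 lower in XEN cells than at 0 h, and 32 higher and 48 lower than at 168 h, since smaller differences then count. With single libraries left out, counts ran from 13 to 15 and from 31 to 37 against 0 h, and from 13 to 16 and from 27 to 30 against 168 h, and 13 of 15, 30 of 32, 9 of 15 and 21 of 31 calls held in all such fits.

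With siOct4, 3 members were higher and 0 lower at an adjusted p under 0.01 (28 and 33 of all genes tested). With a replicate number left out and no block, 2 to 5 were higher and 0 to 1 lower. In the fit with the replicate block, where same-numbered libraries were taken as pairs, 11 were higher and 1 lower (152 and 385 of all genes tested, against 59 and 108 without it). Median-of-ratios scaling called 144 and 153 of all genes. For XEN cells the replicate numbers were not pairs, and the block called 14 and 33 members against 0 h and 13 and 31 against 168 h.

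Of 53 single-gene differences under 159 alternatives, none reversed and 8 lost their call. Under median-of-ratios scaling these were Ddit4 (-0.90), Dusp6 (-0.98), Kit (-0.85) and Synj2 (-0.91) against 168 h and Trap1a with siOct4 (adjusted p = 0.0719, limma). With the block they were Cd24a (0.97) and Tor3a (0.99) against 168 h, and with a pseudocount of 0.1 Tubb3 with siOct4 (adjusted p = 0.052, limma). The depth of the libraries is unknown, so what counting error adds to low members such as Tesc cannot be given.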

Other observations

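Replicate 3 was the library with the lowest value of its time for 74 of the 133 members among the 0 h libraries, for 75 at 16 h, for 77 at 72 h and for 67 at 96 h, and the one with the highest value for 84 members at 24 h and 72 at 48 h. The replicates of a time thus differed over many members at once.

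By known function a few further members stand beside those described, all named here after their values were seen. Adk and Cbr3, metabolic enzymes, and Gcnt2, a glycosyltransferase, are among the 19 members that ended 2-fold or more below 0 h. Txnip, which restrains glucose uptake, and Nfkbia, the inhibitor of NF-κB, are members as well.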
